A study of Rattus norvegicus with 36 samples.

Results

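The mitosis and proliferation genes described here are 42 listed genes whose products drive, execute or mark cell division, from G1/S cyclins to cytokinesis factors. They were taken by gene symbol from the array's annotation, and each was represented by whichever of its probe sets had the highest mean on the 36 arrays. Of the 42, 39 were measured, out of 14217 genes and 31042 probe sets tested. Nek2 and Tpx2 had no probe set with their symbol, and Anln appeared only on a probe set with several symbols.

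Transcripts were measured on 36 arrays of liver from male Sprague Dawley rats, aged 7 weeks at the start, that received hexabromocyclododecane (HBCD), a brominated flame retardant, by gavage. The 6 groups had 6 arrays each. One received corn oil vehicle alone, and the others HBCD in corn oil, at 0.06 mg/kg, at 0.641 mg/kg, at 6.41 mg/kg, at 64.1 mg/kg and at 641 mg/kg. All rats, vehicle included, were given 5 ml/kg on 5 consecutive days, and left lobe RNA was taken 1 day after the last dose. The design asks which transcripts differ from vehicle at each dose. The labels number the arrays of a group but do not tie each to its own rat, and p-values here rest on the scatter among arrays, part of which may be technical. All dose comparisons share the 6 vehicle arrays.

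Cells that divide build cyclin and CDK activity in waves. Cyclin E with CDK2 starts DNA replication, cyclins A and B with CDK1 drive entry into mitosis, the spindle checkpoint holds back anaphase until every chromosome is attached, and cytokinesis factors then split the cell. Adult hepatocytes are mostly quiescent, yet the liver can re-enter the cycle after loss of tissue or exposure to mitogens, and many of these transcripts are then made together in G2 and M. In bulk liver, more cells of a dividing type and more RNA per cell cannot be told apart.

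All levels below are log2 RMA levels of a probe set, so a difference of 1 is a doubling, and levels of different probe sets are not amounts of RNA that can be set against each other. The members' means over all arrays ran from 3.24 to 8.06 with a median of 5.01, against array medians of 4.83 to 4.90. For a sense of background, 3 bacterial trpn control probe sets lay at 1.93 to 2.30, and 27 genes of other tissues (brain, muscle, pituitary and the like) had a median of 3.53 and a 90th percentile of 5.24. In all, 23 members lay above every array median, 15 below every one, and 15 above that 90th percentile. Among the members called below, only Cdk1 (6.00) and Prc1 (5.97) had means above that percentile. The 4 members below the median of those genes of other tissues were Ttk, Plk4, Bub1b and Melk, whose probe sets are thus not shown to be above background. The hepatocyte markers of the labelled tissue averaged 12.9 to 13.0 on vehicle arrays. Arrays of a group correlated at 0.991 or above across probe sets. Vehicle replicate 1, 0.06 mg/kg replicate 3, 0.641 mg/kg replicate 5 and 6.41 mg/kg replicate 6 were each the highest of their group in most members. Counts without an array are given beside the results it moves.

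Promoters are shown for 4 of the members called below because motifs for cell cycle factors recur in this class of gene. The 4 were picked as the called members with CCAAT. Of the other 3 called members with a promoter, Bub1b and Melk held none of the motifs wholly within the 200 bases before the start. Bub1 held no CCAAT there. In Bub1b a TTTGAA began 4 bases before the start and ran past it, and it is counted in the longer windows below. The sequences are from RefSeq, build GRCr8, each giving the 200 bases before the start site, 5′ to 3′ along the gene's strand. Capitals mark CCAAT (bound by NF-Y), TTTGAA or TTTAAA (the core of the cell cycle homology region, CHR), and TTTCGCGC (an E2F type motif), on either strand. ATTGG and TTCAAA are CCAAT and TTTGAA on the opposite strand, and TTTAAA reads the same on both. Cdk1 is at chr20:19265093-19265292 (plus strand), Prc1 at chr1:143659281-143659480 (plus), Top2a at chr10:84473094-84473293 (minus) and Cenpf at chr13:103760887-103761086 (minus).
Cdk1: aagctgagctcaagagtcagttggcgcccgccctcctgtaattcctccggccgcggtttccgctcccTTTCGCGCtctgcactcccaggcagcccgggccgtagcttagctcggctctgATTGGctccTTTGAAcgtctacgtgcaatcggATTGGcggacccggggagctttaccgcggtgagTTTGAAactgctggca
Prc1: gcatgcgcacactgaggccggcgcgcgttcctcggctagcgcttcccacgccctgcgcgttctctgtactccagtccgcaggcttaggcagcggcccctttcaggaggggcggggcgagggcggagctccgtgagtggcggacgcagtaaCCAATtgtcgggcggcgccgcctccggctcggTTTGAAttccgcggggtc
Top2a: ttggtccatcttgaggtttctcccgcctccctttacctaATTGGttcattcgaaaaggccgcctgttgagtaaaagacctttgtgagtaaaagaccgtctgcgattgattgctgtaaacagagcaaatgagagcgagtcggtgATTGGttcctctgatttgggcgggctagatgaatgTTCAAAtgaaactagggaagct
Cenpf: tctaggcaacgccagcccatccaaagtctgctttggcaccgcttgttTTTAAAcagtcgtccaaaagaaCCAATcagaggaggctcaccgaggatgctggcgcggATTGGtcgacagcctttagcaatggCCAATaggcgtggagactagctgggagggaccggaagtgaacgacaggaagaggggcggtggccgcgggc

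In Cdk1, CCAAT matches began 81 and 49 bases before the start, and TTTGAA matches 72 and 16 bases before it. In Prc1, CCAAT began 50 and TTTGAA 18 bases before the start, and in Top2a the nearest CCAAT began 57 and TTTGAA 22 bases before it. Cenpf held CCAAT at 131, 95 and 70 bases before its start, and TTTAAA at 153. Over windows of 300 bases, from 250 before to 50 after the start, 32 of the 39 members had a RefSeq promoter. TTTGAA or TTTAAA was found in 27 of these 32 (84.4%), against 27.9% of all 27457 promoters, and CCAAT in 23 (71.9%) against 37.7%. CCAAT occurred 2 or more times in 15 (46.9%), against 11.5%. TTTGAA was in 20 (62.5%) against 18.1%, and TTTAAA in 10 (31.2%) against 13.5%, with some promoters holding both. The E2F type motifs TTTCCCGC, TTTCGCGC, TTTGCCGC and TTTGGCGC together were found in 2 members (6.25%), Cdk1 and Tyms, against 2.25%. Of the 10 genes called below, 7 had a promoter, 6 of them with TTTGAA or TTTAAA, and 4 with CCAAT. Matches were counted on both strands, and the motifs were not screened for overlap.

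At 641 mg/kg against vehicle, 10 of the 39 members rose and none fell. A called gene had an adjusted p under 0.05 in limma, and 1.13% of all probe sets were called higher and 0.512% lower. Of the members, 28 (71.8%) had an unadjusted p under 0.05, against 11.4% of all probe sets. The difference was positive in 38 of 39 members (97.4%), against 46.9% of all probe sets. Its median was 0.41 on the log2 scale, or 1.33-fold, against -0.0073 over all probe sets. The members moved together across arrays, as given below, so these counts of members are not counts of independent observations. The members that rose spanned cyclin, kinase, checkpoint, chromosome and cytokinesis roles, and no G1/S member was among them on the probe sets chosen by highest mean. A different probe set of Tk1, a G1/S member, was called, as given below.

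**Figure D1:**
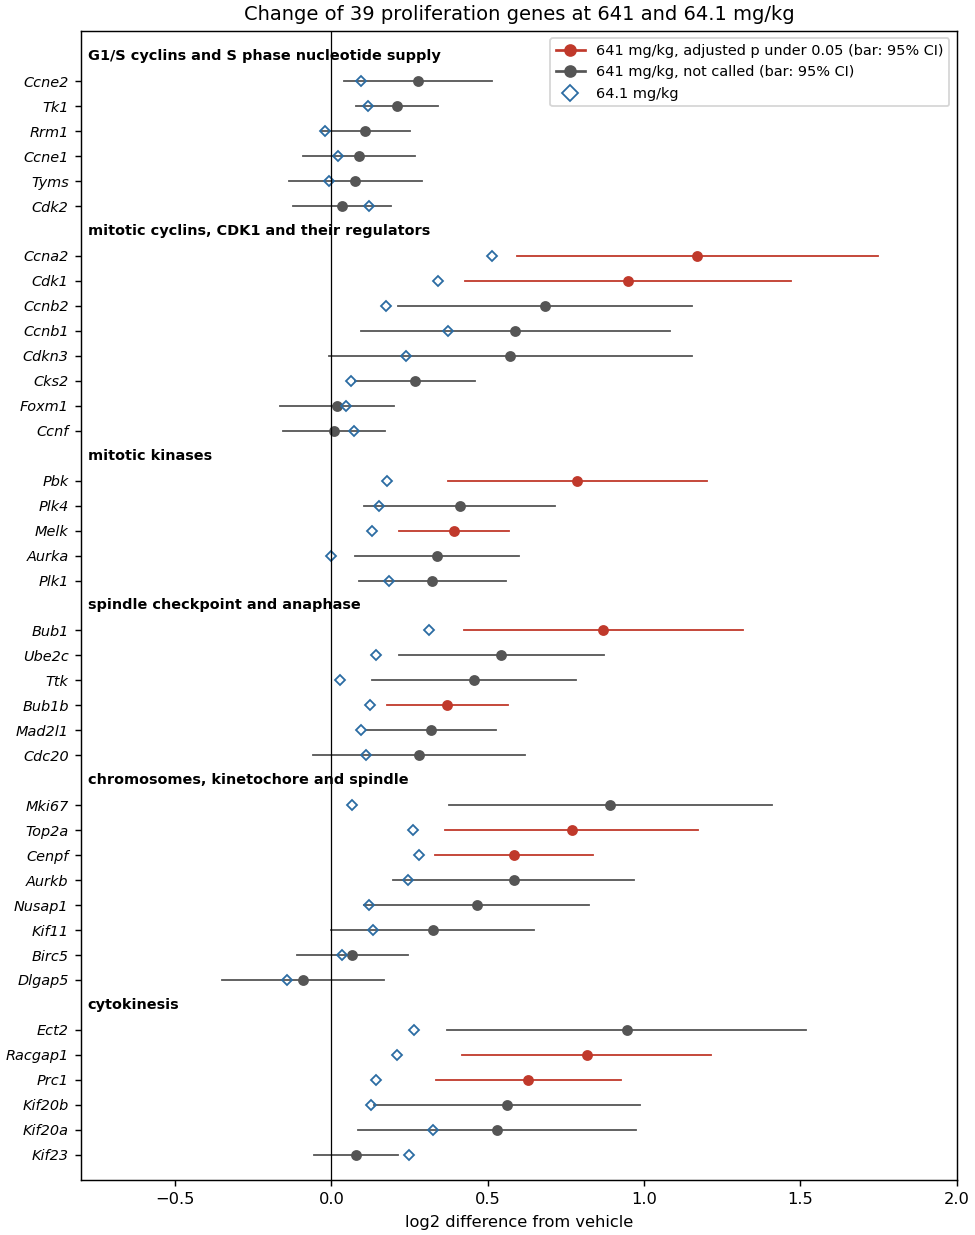
Log2 difference from vehicle for each of the 39 members, grouped by role: filled points with 95% confidence intervals at 641 mg/kg (red where called, grey where not) and open diamonds at 64.1 mg/kg. The called members run from 1.29-fold in Bub1b to 2.25-fold in Ccna2.

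Among the S phase entry and nucleotide supply genes, 0 of 6 were called by limma, 2 had an unadjusted p under 0.05, and the median was 1.07-fold. Tk1 encodes thymidine kinase 1, which feeds the nucleotide salvage pathway. Its vehicle levels ran from 6.63 over a median of 6.75 to 6.94, and its 641 mg/kg levels from 6.79 over 6.97 to 7.11. The groups overlapped, with 2 vehicle arrays above the lowest 641 mg/kg array. Tk1 was 1.16-fold higher (95% CI 1.06 to 1.27), with an adjusted p of 0.0962. Ccne1, cyclin E1, was at 1.06-fold (0.939 to 1.20; adjusted p = 0.792), with levels from 4.54 over 4.79 to 5.07 in vehicle and from 4.73 over 4.84 to 5.16 at 641 mg/kg. Ccne2, cyclin E2, was at 1.21-fold (adjusted p = 0.312). Cdk2, the partner of cyclin E, and Tyms and Rrm1, which make nucleotides for DNA, lay between 1.02-fold and 1.08-fold.

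Of the 8 mitotic cyclins, Cdk1 and their regulators, 2 rose, and the median was 1.50-fold. Ccna2 encodes cyclin A2, the partner of CDK2 in S phase and of CDK1 in G2. Its vehicle levels ran from 3.12 over a median of 3.92 to 4.85, and at 641 mg/kg from 4.83 over 5.04 to 5.54. Here 5 of the 6 treated arrays lay above all vehicle arrays, and 1 vehicle array overlapped. Ccna2 rose 2.25-fold (1.51 to 3.36; adjusted p = 0.0225). Cdk1, the kinase that drives mitosis, had vehicle levels from 5.09 over 5.61 to 6.35 and 641 mg/kg levels from 6.32 over 6.45 to 6.99. It had the same degree of overlap, and rose 1.93-fold (1.35 to 2.77; adjusted p = 0.0465). Ccnb1, cyclin B1, ran from 4.08 over 4.62 to 5.29 in vehicle and from 4.96 over 5.18 to 5.62 at 641 mg/kg. Only 2 treated arrays were above all vehicle arrays, and the adjusted p was 0.299 for 1.50-fold (1.07 to 2.12). Ccnb2 was at 1.61-fold (adjusted p = 0.157), Cdkn3, a phosphatase that acts on CDKs, at 1.49-fold (0.446), and Cks2 at 1.20-fold (0.189). Foxm1, a transcription factor for G2 and M genes, was at 1.01-fold (0.97), and the cyclin Ccnf at 1.005-fold (0.988).

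Of the 5 mitotic kinases, 2 rose, and the median was 1.31-fold. Melk, a kinase abundant in dividing cells, ran from 3.18 over 3.33 to 3.56 in vehicle and from 3.63 over 3.68 to 3.89 at 641 mg/kg, with no overlap. It rose 1.31-fold (1.16 to 1.48; adjusted p = 0.0089). Its mean over all arrays was 3.44, below the 3.53 of the genes of other tissues, so the size of this difference rests on a probe set not shown to be above background. Pbk, a mitotic kinase, ran from 4.25 over 4.41 to 4.93 in vehicle and from 4.83 over 5.23 to 5.74 at 641 mg/kg. One vehicle array overlapped, and Pbk rose 1.72-fold (1.29 to 2.30; adjusted p = 0.0358). Aurka and Plk1, kinases of spindle assembly, and Plk4, the kinase of centriole duplication, lay between 1.25-fold and 1.33-fold and were not called.

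Of the 6 spindle checkpoint and anaphase genes, 2 rose, and the median was 1.33-fold. Bub1, a checkpoint kinase at the kinetochore, ran from 2.92 over 3.65 to 4.38 in vehicle and from 4.25 over 4.64 to 4.70 at 641 mg/kg. One vehicle array lay above the lowest treated array, and Bub1 rose 1.83-fold (1.34 to 2.49; adjusted p = 0.0298). Bub1b, which encodes the checkpoint protein BubR1, ran from 3.16 over 3.21 to 3.56 in vehicle and from 3.51 over 3.60 to 3.84 at 641 mg/kg. It rose 1.29-fold (1.13 to 1.48; adjusted p = 0.0341), with 3 of 6 treated arrays above all vehicle arrays. The same limit holds for its probe set, with a mean of 3.39. Ube2c, the ubiquitin-conjugating enzyme of the anaphase-promoting complex, was at 1.46-fold (adjusted p = 0.0849). The checkpoint kinase Ttk was at 1.37-fold, Mad2l1, which restrains Cdc20, at 1.25-fold, and Cdc20, the activator of that complex, at 1.22-fold. None of the 3 was called.

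Of the 8 genes for chromosomes, kinetochore and spindle, 2 rose, and the median was 1.44-fold. Top2a, the topoisomerase that untangles sister chromosomes, ran from 4.13 over 4.74 to 5.16 in vehicle and from 5.15 over 5.41 to 5.87 at 641 mg/kg. It rose 1.70-fold (1.29 to 2.25; adjusted p = 0.0353), with 1 vehicle array overlapping. Cenpf, a kinetochore protein, ran from 4.14 over 4.56 to 5.02 in vehicle and from 4.86 over 5.10 to 5.43 at 641 mg/kg. It rose 1.50-fold (1.26 to 1.79; adjusted p = 0.00674), with 3 of 6 treated arrays above all vehicle arrays. Mki67, which encodes the Ki-67 protein that coats mitotic chromosomes, ran from 4.13 over 4.37 to 5.40 in vehicle and from 4.71 over 5.43 to 5.83 at 641 mg/kg. Its difference of 1.86-fold (1.30 to 2.65) had an adjusted p of 0.0657, and 1 vehicle array stood above the others. Aurkb and Birc5, partners in the chromosomal passenger complex, were at 1.50-fold (adjusted p = 0.131) and 1.05-fold (0.849). Nusap1, a microtubule binding protein, was at 1.38-fold and Kif11, a spindle motor, at 1.25-fold, and neither was called. Dlgap5, a spindle assembly factor, was the lowest at 0.939-fold (0.785 to 1.12; adjusted p = 0.863), with all 6 vehicle arrays above its lowest treated array.

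Of the 6 cytokinesis genes, 2 rose, and the median was 1.51-fold. Racgap1, a subunit of centralspindlin at the spindle midzone, ran from 4.36 over 4.74 to 5.00 in vehicle and from 5.24 over 5.55 to 5.81 at 641 mg/kg, with no overlap. It rose 1.76-fold (1.34 to 2.32; adjusted p = 0.0212). A second Racgap1 probe set was at 0.999-fold, as given below. Prc1, which crosslinks midzone microtubules, ran from 5.42 over 5.73 to 6.19 in vehicle and from 6.08 over 6.49 to 6.63 at 641 mg/kg. It rose 1.55-fold (1.26 to 1.90; adjusted p = 0.0143), with 4 of 6 treated arrays above all vehicle arrays. Ect2, the activator of RhoA at the cleavage site, was at 1.92-fold (1.29 to 2.87; adjusted p = 0.0883), the kinesins Kif20b at 1.48-fold and Kif20a at 1.44-fold, and none was called. Kif23, the other centralspindlin subunit, was at 1.06-fold (adjusted p = 0.735).

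For 2 of the 39 members (5.13%), Melk and Racgap1, the lowest 641 mg/kg array exceeded the highest vehicle array, and 1.06% of all probe sets did so. The members are counted here on the probe sets chosen by highest mean.

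**Figure D2:**
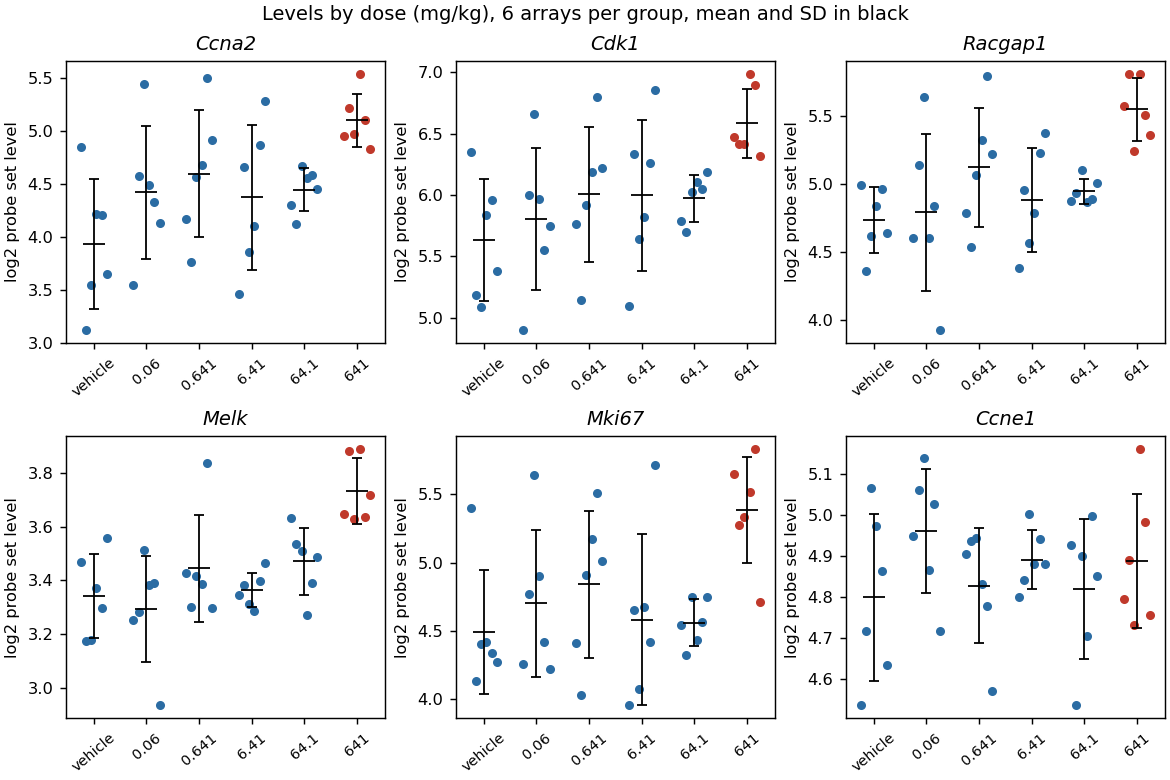
Log2 levels of Ccna2, Cdk1, Racgap1, Melk, Mki67 and Ccne1, 1 point per array, by dose group in mg/kg; black marks are the mean and SD of 6 arrays. The 641 mg/kg arrays (red) of Melk and Racgap1 lie above all vehicle arrays, whereas those of Ccne1 overlap them.

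The number of calls at 641 mg/kg hung on single arrays. It ran from 3 to 14 when 1 array was left out. It was 3 without vehicle replicate 2, vehicle replicate 3, 641 mg/kg replicate 2 or 641 mg/kg replicate 4. It was 5 without vehicle replicate 6, 6 without 641 mg/kg replicate 1 or 5, and 14 without vehicle replicate 1. Melk and Cenpf stayed called in all 12 fits, Prc1 in 11 and Racgap1 in 9, while Ccna2 stayed in 7, Bub1 and Top2a in 5, Pbk and Bub1b in 4 and Cdk1 in 2. Adjusting over the 5 doses together left 2 calls, Cenpf and Melk.

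At the 4 lower doses limma called no member against vehicle. At 64.1 mg/kg 2 members (5.13%) had an unadjusted p under 0.05 (Cenpf and Kif23), against 5.94% of all probe sets, and 0.0419% of all probe sets were called higher. At 6.41 mg/kg 3 members (7.69%) had an unadjusted p under 0.05 (Kif23, Mad2l1 and Tk1), against 4.13% of all probe sets. At 0.641 mg/kg there were 4 (10.3%, Ccna2, Prc1, Tk1 and Top2a), against 4.76%, and at 0.06 mg/kg 0, against 4.17%. At 6.41, 0.641 and 0.06 mg/kg, 0% of all probe sets were called. From 64.1 down to 0.06 mg/kg, the difference was positive in 35, 35, 36 and 32 of 39 members. Over all probe sets it was positive in 51.6%, 49.4%, 48.9% and 48.2%. The median log2 difference of the members was 0.13, 0.11, 0.17 and 0.08 in that order of doses. It did not follow the order of the doses below 641 mg/kg. The members moved together across arrays, as given below, and the 4 comparisons share the vehicle arrays. The counts of members with a positive difference are thus not counts of independent observations.

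Levels at the 4 lower doses are given for the same genes, from the lowest array over the median to the highest. Tk1 ran from 6.73 over 6.83 to 6.93 at 0.06 mg/kg, from 6.70 over 6.94 to 7.07 at 0.641, from 6.74 over 6.89 to 7.06 at 6.41 and from 6.78 over 6.89 to 6.93 at 64.1 mg/kg, with 5 of 24 arrays above the 641 mg/kg median. Ccne1 ran from 4.72 over 4.99 to 5.14 at 0.06 mg/kg, from 4.57 over 4.87 to 4.94 at 0.641, from 4.80 over 4.88 to 5.00 at 6.41 and from 4.54 over 4.88 to 5.00 at 64.1 mg/kg, with 16 of 24 arrays above the 641 mg/kg median. The Ccne1 arrays of every dose group overlapped each other.

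Ccna2 ran from 3.54 over 4.40 to 5.45 at 0.06 mg/kg, from 3.76 over 4.62 to 5.49 at 0.641, from 3.46 over 4.38 to 5.28 at 6.41 and from 4.12 over 4.50 to 4.67 at 64.1 mg/kg, with 3 of 24 arrays above the 641 mg/kg median. The arrays above that median came from the 3 lowest doses. Cdk1 ran from 4.90 over 5.86 to 6.66 at 0.06 mg/kg, from 5.14 over 6.05 to 6.80 at 0.641, from 5.10 over 6.04 to 6.85 at 6.41 and from 5.70 over 6.04 to 6.19 at 64.1 mg/kg, with 3 of 24 arrays above the 641 mg/kg median. Cyclin B1 (Ccnb1) ran from 4.39 over 4.69 to 5.73 at 0.06 mg/kg, from 3.96 over 5.09 to 5.83 at 0.641, from 4.22 over 4.93 to 5.63 at 6.41 and from 4.81 over 5.04 to 5.27 at 64.1 mg/kg, with 8 of 24 arrays above the 641 mg/kg median. The 64.1 mg/kg arrays of these 3 genes were the most closely grouped of the 4 lower doses.

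Melk ran from 2.94 over 3.33 to 3.51 at 0.06 mg/kg, from 3.30 over 3.40 to 3.84 at 0.641, from 3.29 over 3.36 to 3.47 at 6.41 and from 3.27 over 3.50 to 3.63 at 64.1 mg/kg, with 1 of 24 arrays above the 641 mg/kg median. That array was replicate 5 at 0.641 mg/kg, which lay within the 641 mg/kg range. Pbk ran from 4.19 over 4.50 to 5.46 at 0.06 mg/kg, from 4.15 over 4.66 to 5.36 at 0.641, from 4.06 over 4.55 to 5.47 at 6.41 and from 4.52 over 4.65 to 4.77 at 64.1 mg/kg, with 3 of 24 arrays above the 641 mg/kg median. The checkpoint kinase Bub1 ran from 3.55 over 4.05 to 4.62 at 0.06 mg/kg, from 3.34 over 4.10 to 4.56 at 0.641, from 3.19 over 3.92 to 4.58 at 6.41 and from 3.73 over 3.93 to 4.27 at 64.1 mg/kg, with 0 of 24 arrays above the 641 mg/kg median. Bub1b ran from 3.14 over 3.32 to 3.62 at 0.06 mg/kg, from 3.15 over 3.36 to 3.77 at 0.641, from 3.08 over 3.34 to 3.58 at 6.41 and from 3.27 over 3.36 to 3.53 at 64.1 mg/kg, with 2 of 24 arrays above the 641 mg/kg median. Pbk and Bub1b arrays of the 4 lower doses overlapped the vehicle arrays, and those at 64.1 mg/kg lay wholly within the vehicle range.

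Mki67 ran from 4.23 over 4.59 to 5.64 at 0.06 mg/kg, from 4.03 over 4.96 to 5.51 at 0.641, from 3.96 over 4.54 to 5.72 at 6.41 and from 4.32 over 4.55 to 4.75 at 64.1 mg/kg, with 3 of 24 arrays above the 641 mg/kg median. Top2a ran from 4.45 over 4.82 to 5.72 at 0.06 mg/kg, from 4.68 over 5.18 to 5.75 at 0.641, from 4.45 over 4.96 to 5.58 at 6.41 and from 4.80 over 4.95 to 5.04 at 64.1 mg/kg, with 3 of 24 arrays above the 641 mg/kg median. The 3 lowest doses each held an Mki67 and a Top2a array above the highest vehicle array. Cenpf ran from 4.40 over 4.74 to 5.07 at 0.06 mg/kg, from 4.56 over 4.81 to 5.00 at 0.641, from 4.26 over 4.67 to 5.15 at 6.41 and from 4.70 over 4.81 to 4.99 at 64.1 mg/kg, with 1 of 24 arrays above the 641 mg/kg median. Dlgap5 ran from 4.63 over 5.02 to 5.30 at 0.06 mg/kg, from 4.86 over 5.18 to 5.68 at 0.641, from 4.70 over 4.87 to 5.25 at 6.41 and from 4.71 over 4.99 to 5.16 at 64.1 mg/kg, with 12 of 24 arrays above the 641 mg/kg median. Dlgap5 groups overlapped throughout.

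Racgap1 ran from 3.92 over 4.72 to 5.64 at 0.06 mg/kg, from 4.54 over 5.15 to 5.80 at 0.641, from 4.38 over 4.87 to 5.38 at 6.41 and from 4.87 over 4.91 to 5.10 at 64.1 mg/kg, with 2 of 24 arrays above the 641 mg/kg median. Prc1 ran from 5.42 over 5.84 to 6.57 at 0.06 mg/kg, from 5.78 over 6.03 to 6.55 at 0.641, from 5.29 over 5.79 to 6.01 at 6.41 and from 5.76 over 5.96 to 6.00 at 64.1 mg/kg, with 2 of 24 arrays above the 641 mg/kg median. No 64.1 mg/kg array of Racgap1 or Prc1 reached the lowest 641 mg/kg array.

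A difference between 641 and 64.1 mg/kg was tested directly. Limma called 0 of 39 members, although 20 (51.3%) had an unadjusted p under 0.05, against 9.15% of all probe sets. Of all probe sets, 0.242% were called. The median log2 difference was 0.26, or 1.20-fold. The smallest adjusted p was that of Prc1, at 0.221 for 1.40-fold (1.14 to 1.72). The main fit shares the spread of a probe set over all 6 groups, and for some members the spreads were unequal. The SD of Ccna2 was 0.20 at 64.1 mg/kg and 0.25 at 641 mg/kg, against 0.60 to 0.68 in the other groups. In a fit of the 641 and 64.1 mg/kg groups alone 3 members were called, Racgap1, Mki67 and Ccna2. The share of all probe sets called in that fit is not given here, so nothing is drawn from this count. Calls at 641 mg/kg and none at 64.1 mg/kg thus do not show that the doses differ.

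Against the mean of the 0.06, 0.641 and 6.41 mg/kg groups, a contrast added after the data were seen, 6 members were called higher at 641 mg/kg, with 1.18% of all probe sets. They were Melk (1.29-fold; adjusted p = 0.00165), Prc1 (1.42-fold; 0.0127), Cenpf (1.33-fold; 0.0225), Racgap1 (1.54-fold; 0.0305), Pbk (1.54-fold; 0.0383) and Bub1b (1.22-fold; 0.0390). The count ran from 1, without 641 mg/kg replicate 4, to 9, without 0.641 mg/kg replicate 5, when 1 array was left out. It was 2 without 641 mg/kg replicate 1 and 3 without 641 mg/kg replicate 2 or 5.

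A linear trend over the dose ranks called 2 members, with 1.35% of all probe sets. Melk rose by 0.07 per dose step on the log2 scale (adjusted p = 0.00677) and Cenpf by 0.09 (adjusted p = 0.0193). This count ran from 1 to 9 with 1 array left out. It was 9 without vehicle replicate 1 or 0.06 mg/kg replicate 3, 5 without 0.641 mg/kg replicate 5 and 4 without 6.41 mg/kg replicate 1. It was 1 without vehicle replicate 2 or 641 mg/kg replicate 4 or 5. The moderated F test over the 5 doses called Melk alone (adjusted p = 0.0302), with 0.773% of all probe sets. Its count ran from 0 to 3. It was 0 without any 1 of 641 mg/kg replicates 1, 2, 4, 5 and 6, 2 without 6.41 mg/kg replicate 6, and 3 without vehicle replicate 1 or 0.06 mg/kg replicate 3.

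A score per array, the mean over 39 members of the log2 difference from the vehicle mean, shows how the arrays were spread. Vehicle arrays scored 0.37, -0.21, -0.18, 0.05, 0.10 and -0.14, and 641 mg/kg arrays 0.42, 0.51, 0.31, 0.64, 0.51 and 0.26. One vehicle array, replicate 1, lay above the lowest 641 mg/kg array, and no other vehicle array did. The 64.1 mg/kg arrays were tightly grouped, from 0.08 to 0.20. The 0.06, 0.641 and 6.41 mg/kg arrays ran from -0.14 to 0.55, -0.22 to 0.59 and -0.22 to 0.54, and 1, 3 and 2 of them lay above the lowest 641 mg/kg array. The difference in mean score between 641 mg/kg and vehicle was 0.44, and 0.52 at most and 0.40 at least with 1 array left out.

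**Figure D3:**
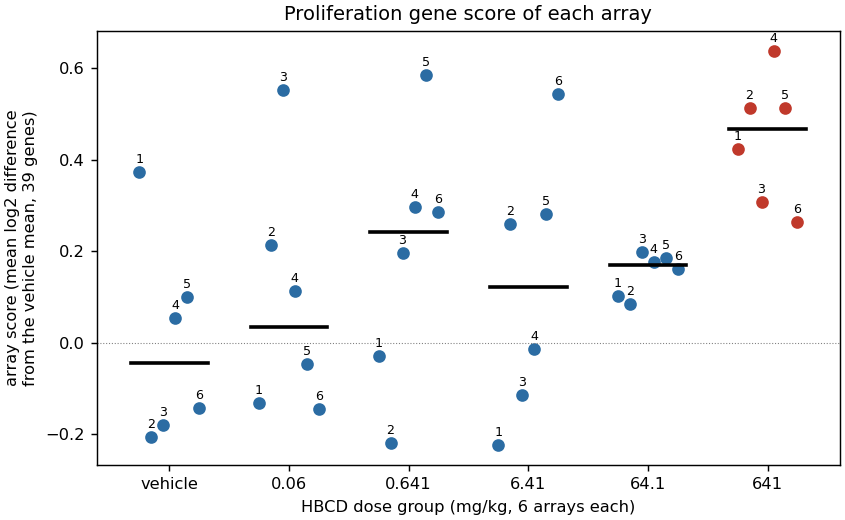
Mean log2 difference from the vehicle mean over 39 members, 1 point per array, by dose group in mg/kg; black lines are group medians. The 641 mg/kg arrays run from 0.26 to 0.64 and the 64.1 mg/kg arrays from 0.08 to 0.20, while each other group spans at least 0.58.

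The high arrays were high in most members. Vehicle replicate 1 was the highest of its group in 28 of 39 members, 0.06 mg/kg replicate 3 in 31, 0.641 mg/kg replicate 5 in 27 and 6.41 mg/kg replicate 6 in 29. At 64.1 mg/kg no array was highest in more than 10.

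**Figure D4:**
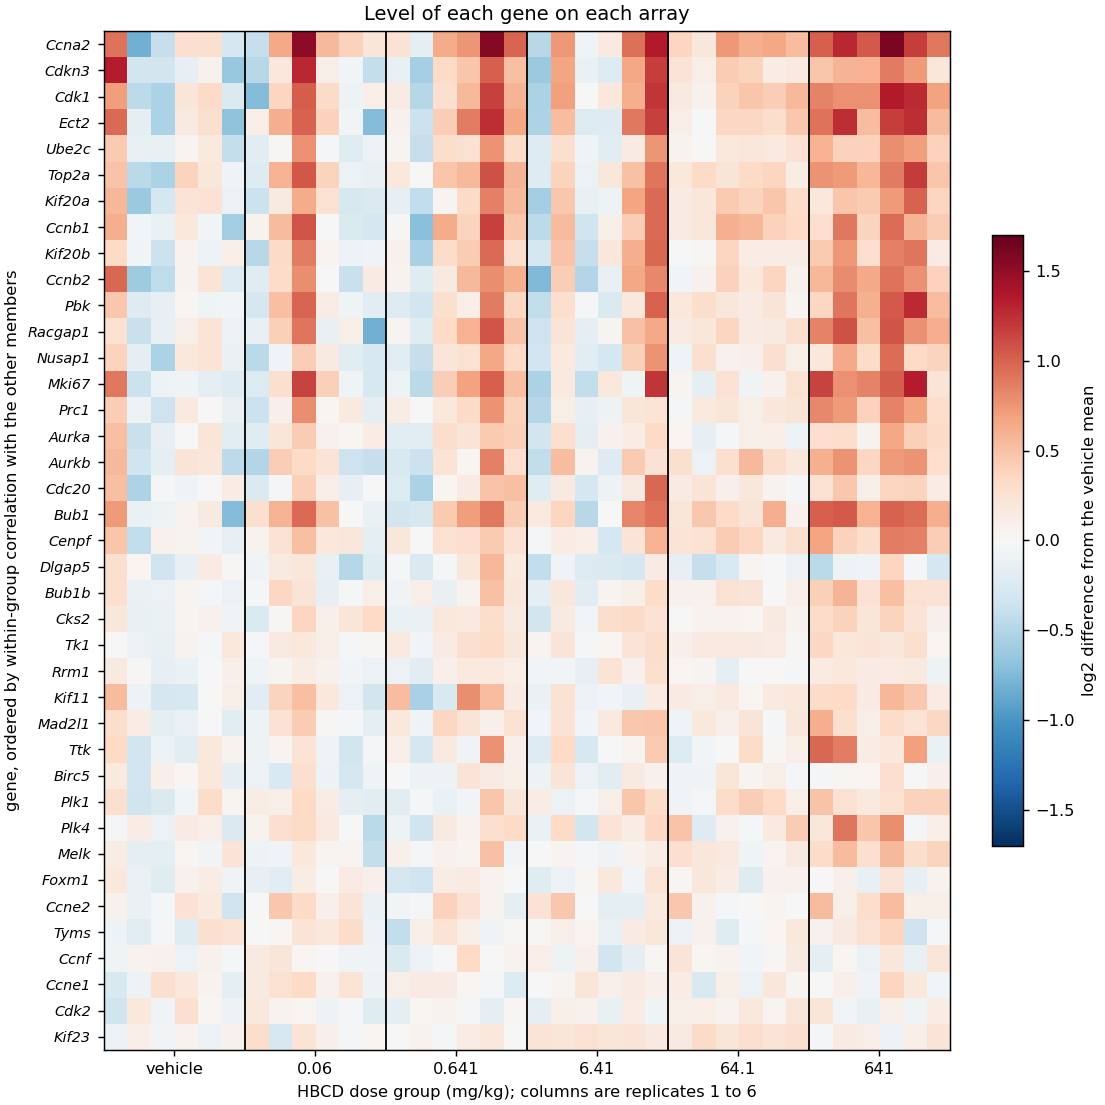
Log2 difference from the vehicle mean (colour) for each member (vertical axis, ordered by correlation with the others) on each of the 36 arrays (horizontal axis, by dose group). Vehicle replicate 1, 0.06 mg/kg replicate 3, 0.641 mg/kg replicate 5 and 6.41 mg/kg replicate 6 stand out within their groups across most members.

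With group means removed, the members moved together across arrays. The median correlation over 741 pairs of members was 0.54 over 36 arrays, which share tissue, array type and normalization, and is given as a description. The correlation of a member with the mean of the others was over 0.8 for 19 members, with Ccna2 (0.96), Cdkn3 (0.94), Cdk1 (0.93) and Ect2 (0.93) at the top. For Ccna2, Spearman's rho was 0.95, and r was 0.94 without the 2 arrays with scores farthest from the median. The correlation was between 0.3 and 0.8 for 15 and under 0.3 for 5, namely Ccne1 (0.06), Ccnf (0.07), Tyms (0.19), Cdk2 (-0.09) and Kif23 (-0.14). Of 14178 other genes, 17 were over 0.8, and the quartiles over these other genes were -0.14 and 0.14. The 19 members had a median log2 difference at 641 mg/kg of 0.63, and the 5 one of 0.08. Within-group SDs were 0.24 to 0.54 in the 19 and 0.11 to 0.19 in the 5.

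**Figure D5:**
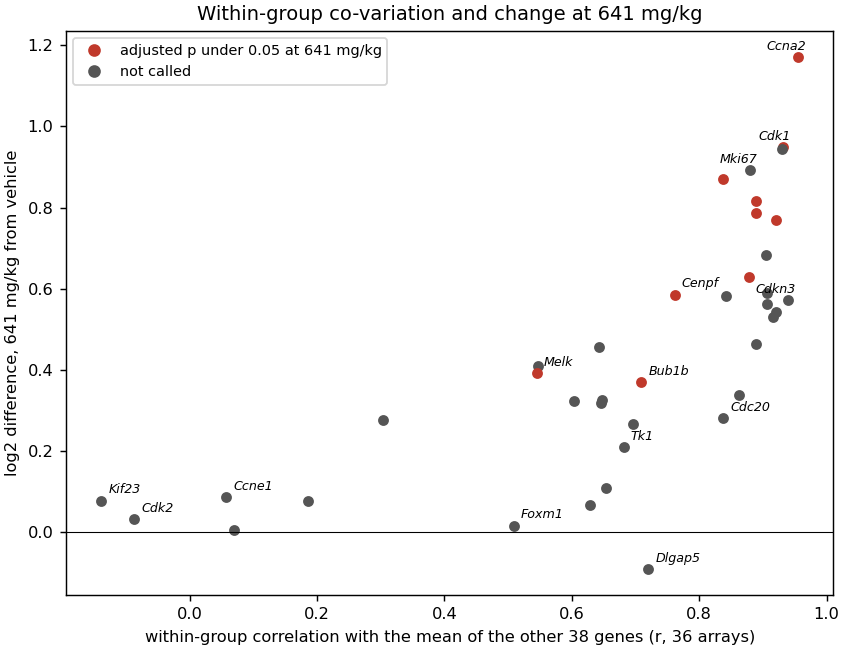
Correlation of each member with the mean of the others over 36 arrays, group means removed (horizontal axis), against its log2 difference at 641 mg/kg (vertical axis); red points were called. The 5 members with a correlation under 0.3 lie between 0.01 and 0.09 in log2 difference, and the 19 over 0.8 between 0.28 and 1.17.

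A further 18 probe sets of 13 members were measured, of which 3 were called higher at 641 mg/kg and none lower, with a median log2 difference of 0.15. The other Kif23 probe set ran from 3.28 over 3.47 to 3.96 in vehicle and from 3.94 over 4.28 to 4.44 at 641 mg/kg, and rose 1.58-fold (1.32 to 1.91; adjusted p = 0.00318). Tk1 had 2 further probe sets. One of them ran from 6.01 over 6.39 to 6.45 in vehicle and from 6.64 over 6.76 to 7.12 at 641 mg/kg, without overlap. It rose 1.43-fold (1.27 to 1.61; adjusted p = 2.45e-04). The remaining one was at 1.12-fold (0.967 to 1.29; adjusted p = 0.599). For Kif23 and Tk1 the probe sets disagree, since those chosen by highest mean were not called. A second Top2a probe set rose 1.36-fold (1.15 to 1.61; adjusted p = 0.0400), as the first had. A second Racgap1 probe set was at 0.999-fold (adjusted p = 0.999), so the probe sets of Racgap1 disagree too, with the chosen one called.

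Other cell cycle genes were described by lists, at 641 mg/kg. For comparison, 1.13% of all probe sets were called higher and 0.512% lower, with a median log2 difference of -0.0073. Of 34 other mitosis genes measured, 4 rose and none fell, with a median of 0.26. Zwint, a kinetochore protein, rose 1.45-fold (adjusted p = 1.42e-04), Spc24, of the NDC80 complex, 1.76-fold (0.00505) and Cenpk 1.39-fold (0.0114). Of 27 DNA replication genes, 7 rose, with a median of 0.19, among them the helicase subunits Mcm4 (1.38-fold; adjusted p = 5.26e-04), Mcm6 (1.56-fold; 0.00387) and Mcm2 (1.22-fold; 0.0198). Of 18 G0 and G1 entry genes, 1 rose, the growth regulator Myc (2.30-fold; adjusted p = 0.0322), and of 13 cell cycle inhibitors 1 rose, Cdkn2c (1.30-fold; 0.00988). Of 14 growth factor ligands and receptors, 1 fell, Egf, 1.25-fold lower (adjusted p = 0.0200). The difference was positive in 32 of the 34 other mitosis genes and 26 of the 27 DNA replication genes. It was positive in 11 of the 18 entry genes, 7 of the 13 inhibitors and 3 of the 14 growth factor genes. Median log2 differences of these last lists were 0.06, 0.008 and -0.10, and each held a single call.

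Markers of other cell types and RNA quality were measured beside the score, and their part in the result was not tested. For comparison with the counts below, 11.4% of all probe sets had an unadjusted p under 0.05 at 641 mg/kg and 5.94% at 64.1 mg/kg. Of 11 hepatocyte markers 1 fell at 641 mg/kg, Ass1, 1.41-fold lower (adjusted p = 1.07e-04). Of the 11, 6 had an unadjusted p under 0.05 and 1 had a positive difference, with a median log2 difference of -0.10. The list mean was 12.7 to 12.8, below 12.9 to 13.0 in vehicle. Of 10 Kupffer cell and macrophage markers none was called by limma and 0 had an unadjusted p under 0.05, with list means of 8.38 to 8.68 against 8.57 to 8.82. At 64.1 mg/kg 8 of these 10 had an unadjusted p under 0.05, all lower, with a median log2 difference of -0.42. Of 13 T and NK cell markers 1 fell, Cd8a, 1.58-fold lower (adjusted p = 0.0176), and list means were 4.22 to 4.48 against 4.39 to 4.65. Neutrophil list means were 3.61 to 3.78 against 3.58 to 3.99, with 0 of 5 called and 1 with an unadjusted p under 0.05. At 641 mg/kg 0 of 10 Kupffer cell, 5 of 13 T and NK cell and 1 of 5 neutrophil markers had a positive difference. Their median log2 differences were -0.12, -0.04 and -0.22. None of 5 B cell, 7 erythroid, 8 endothelial, 11 stellate and 6 cholangiocyte markers was called by limma, with 1, 0, 2, 1 and 1 at an unadjusted p under 0.05. In that order of lists, 2, 1, 1, 6 and 4 markers had a positive difference, and the median log2 differences were -0.06, -0.06, -0.08, 0.02 and 0.08. The smallest p in each list belonged to Blnk (1.16-fold; adjusted p = 0.262), Rhag (0.911-fold; 0.620), Fcgr2b (0.863-fold; 0.385), Pdgfrb (0.824-fold; 0.197) and Epcam (1.17-fold; 0.321), and to Cd163 (0.900-fold; 0.746) and Csf3r (0.861-fold; 0.282) for the Kupffer and neutrophil lists. Blnk and Pdgfrb lay on the opposite side of 0 from the medians of their lists. The means of Csf3r (2.76) and Rhag (3.39) lay below the median of 3.53 of the genes of other tissues. The 3' minus 5' difference of the actin control ran from 0.99 to 1.39 in vehicle and from 1.06 to 1.23 at 641 mg/kg. With group means removed over 36 arrays, the list means correlated with the score at -0.29 for Kupffer cell, -0.42 for T and NK cell and -0.57 for neutrophil markers. The correlation was -0.42 for B cell, -0.19 for erythroid and 0.00 for hepatocyte markers. It was 0.10 for endothelial, 0.14 for stellate and 0.39 for cholangiocyte markers, and -0.23 for the actin difference.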

How the data were processed

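Liver RNA of 36 samples was hybridised to Affymetrix arrays. The deposited values are log2 levels, which the authors made with RMA and affy, per the submitters' processing notes. Software versions are not given in the sources used here. RMA corrects background and normalizes between arrays, which can compress small differences near background. Of 31099 probe sets, 57 controls were left out and 31042 tested. Of these, 20826 had 1 symbol, 436 several and 9780 none, and symbols were updated by gene ID for 20758, by accession for 2 and kept for 66.

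A single limma model (version 3.58.1, R 4.3.3) with group as its factor covered all 36 arrays, where the design text names R/maanova. Two-sided p-values were adjusted by the Benjamini-Hochberg method over all probe sets of a contrast. All adjusted p-values come from limma, and a call means one under 0.05. The step was also run on simulated data, with independent probe sets and the same SD in every group. The members here were correlated and some had unequal spreads, so nothing is drawn from that run about their calls. The number of arrays, 6 a group, limits the precision.

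The members and gene lists were chosen with earlier results of these data known. Values per group are given for every called member, for Mki67, Top2a, Ccnb1, Ccne1 and Tk1 and for the member with the largest fall. Up to 3 called genes a direction are named from other lists, or the gene with the smallest p where a list had no call. Genes of like pattern are the 5 that correlate best with the array score. Values of other members were chosen after they were seen.

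Alternatives were a block on replicate number, arrays centred on their medians, quantile normalization again, filters at a group mean of 5 or 6, a robust variance trend, array weights, fitting the compared groups only, averaging a gene's probe sets, adjusting all doses jointly, and leaving out each array. The contrast of 641 mg/kg with the 3 lowest doses was added after seeing the data.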

Additional observations from a re-analysis of the deposited data

Results flagged for a closer look

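In 96 groups of 6 arrays, the 6 groups for each of 15 named genes and for the array score, the gap of the highest or lowest array to the next was divided by the group's range. In 3 groups the ratio exceeded Dixon's 95% critical value, which chance does in about 1 group in 20. Mki67 on vehicle replicate 1 was at 5.40, with the other vehicle arrays at 4.13 to 4.42. Pbk on the same array was at 4.93, with the others at 4.25 to 4.50. Melk at 0.641 mg/kg replicate 5 was at 3.84, with the others at 3.30 to 3.43.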

How the results depend on the processing

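The count of 10 members called at 641 mg/kg was 2 with the 5 doses adjusted together and 4 with a group mean of at least 6, and ran from 3 to 14 with 1 array left out. The filter at a mean of 6 kept 2 of the 10 and added Tk1 and Ube2c. The filter at a mean of 5 gave 10 calls but kept 7 of the 10, since it removed Bub1, Bub1b and Melk, and it added Mki67, Tk1 and Ube2c. Under the other alternatives the count was 9 to 12, with Cdk1 lost under repeated quantile normalization and the robust variance trend, and Racgap1 lost with the mean of a gene's probe sets. Against 64.1 mg/kg the count of 0 became 3 when only the groups compared were fitted. Against the 3 lowest doses, 6 became 2 with a group mean of at least 6 and 3 with only the groups compared, and 1 to 9 with 1 array left out. For the dose rank slope, 2 became 4 with a group mean of at least 5 and 4 with the mean of a gene's probe sets, and 1 to 9 with 1 array left out. For the F test, 1 became 0 with the replicate block, 2 with array weights and 3 with the mean of a gene's probe sets, and 0 to 3 with 1 array left out. Counts at the 4 lower doses were 0 under every alternative run. The share of all probe sets called under each alternative is not given here. The cause of these changes was not tested. The score difference of 0.44 ran from 0.40 to 0.52 with 1 array left out. Of 299 values of 15 named genes under alternatives, 236 kept direction and side of the threshold, 52 were no longer past it, 11 newly passed and 0 reversed. Over 90 pairs of arrays with the same replicate number, the median correlation of deviations was 0.0306, with a range of -0.301 to 0.308. Over 450 other pairs the median was 7.81e-04. Of the same-number pairs 19 were over 0.1, and 8 of 36 arrays correlated best with their own number. These values show no clear pairing by replicate number, and a partial one is not excluded. With the replicate block, 10 members were called at 641 mg/kg. Of the 10 called members, 6 lay below every array median, and their differences rest on probe sets of low signal.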

Other observations

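Outside the 39 members, the 5 genes whose levels followed the array score most closely, with group means removed over 36 arrays, were Cdca3, Spc24, Cenpw, Arhgap11a and Depdc1. Cdca3 had a correlation of 0.94 with the score and was at 1.31-fold at 641 mg/kg (adjusted p = 0.583). Spc24, a kinetochore gene of the other mitosis list, had 0.94. Cenpw, a centromere protein, had 0.91 (1.32-fold; adjusted p = 0.254), Arhgap11a 0.90 (1.48-fold; 0.0708) and Depdc1 0.89 (1.39-fold; 0.200). The means of Cenpw (3.36) and Depdc1 (3.23) lay below the median of 3.53 of the genes of other tissues. Their probe sets are thus not shown to be above background. The arrays share tissue and normalization, and nothing is drawn from these values about shared function.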
